A study of Mus musculus with 6 samples.

Results

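Genes of the families known for making, breaking down, reading and localising cyclic AMP were followed in hippocampal messenger RNA from adult male C57BL/6J mice fed a ketogenic diet or a control diet. They were taken by name from the protein-coding rows of the deposited gene count table: adenylyl cyclases (Adcy), phosphodiesterases (Pde), subunits of protein kinase A (Prkac and Prkar), A-kinase anchoring proteins (Akap) and Rap guanine nucleotide exchange factors (Rapgef). Of 63 rows that matched, 54 had counts that summed to 60 or more over the 6 libraries. These 54, of 53715 rows in all, are the genes described: 10 adenylyl cyclases, 20 phosphodiesterase-named genes, 6 kinase subunits, 12 anchoring proteins and 6 exchange factors. Being taken by name, not every one acts on or responds to cyclic AMP. Pde9a, for example, is specific for cyclic GMP, and Pde4dip and Pde6d encode no catalytic phosphodiesterase. The rule itself uses names and summed counts and no difference between the diets, though it was set with earlier results of these data known. Both groups had the same inbred background and no transgene or deletion in the labels, and were 2 to 3 months old. The ketogenic group (3 libraries) received the high-fat, low-carbohydrate diet for 3 weeks, and the control group (3 libraries) received control diet for the same time. The libraries are called ketogenic 1 to 3 and control 1 to 3. The labels do not state that each library came from 1 mouse, but give 6 mice for 6 libraries.

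Cyclic AMP is made from ATP by adenylyl cyclases, most of which sit in the plasma membrane and respond to G proteins, and some of which also respond to calcium. It releases the catalytic subunits of protein kinase A (PKA) from the regulatory subunits and activates the Epac exchange factors, and it is removed by phosphodiesterases. Anchoring proteins hold PKA, often with a phosphodiesterase or phosphatase, at a given place in the cell. In the hippocampus this pathway is known for its part in long-term potentiation and memory.

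All 54 genes passed the filter on low counts and were tested, among 16478 genes in all, on libraries of 16832240 to 18357792 counts. Levels of a gene across libraries are given in CPM (counts scaled to a common library size by TMM), as mean ± SD with n = 3 per diet. Differences are log2 fold changes of ketogenic over control diet ± standard error. The adjusted p is that of the edgeR quasi-likelihood test, corrected by Benjamini and Hochberg's method across the 16478 genes, and a gene is said to rise or fall where this is under 0.05. Levels of different genes are compared only in the deposited FPKM, which are per gene length. Gene positions are the deposited ones, which match GRCm38. Of the 54 genes, 12 rose (22.2%) and 5 fell (9.26%), where 5.05% of all tested genes rose and 4.62% fell (31.5% of members and 9.67% of all tested genes either way). The median log2 fold change was 0.03 over the 54 genes and -0.01 over all tested genes, and the median size of the change regardless of sign was 0.21 over the 54 genes and 0.16 over all tested genes. The diets did not overlap in any of the 17 changed genes. Counting members that missed the threshold, 16 lay higher and 8 lower without overlap, as did 27.6% of all tested genes (14% higher, 13.6% lower). In 12 of the 17 changed genes ketogenic 1 was the ketogenic library closest to the control libraries. The counts depended on single libraries: 6 rose and 2 fell without control 2, 5 and 2 without ketogenic 2, and 7 and 3 without ketogenic 3. With control 1 and control 2 both left out, 2 rose (Pde1a and Pde11a) and 1 fell (Adcy1), in a fit that takes the spread of the remaining control library to be that of the ketogenic ones.

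**Figure D1:**
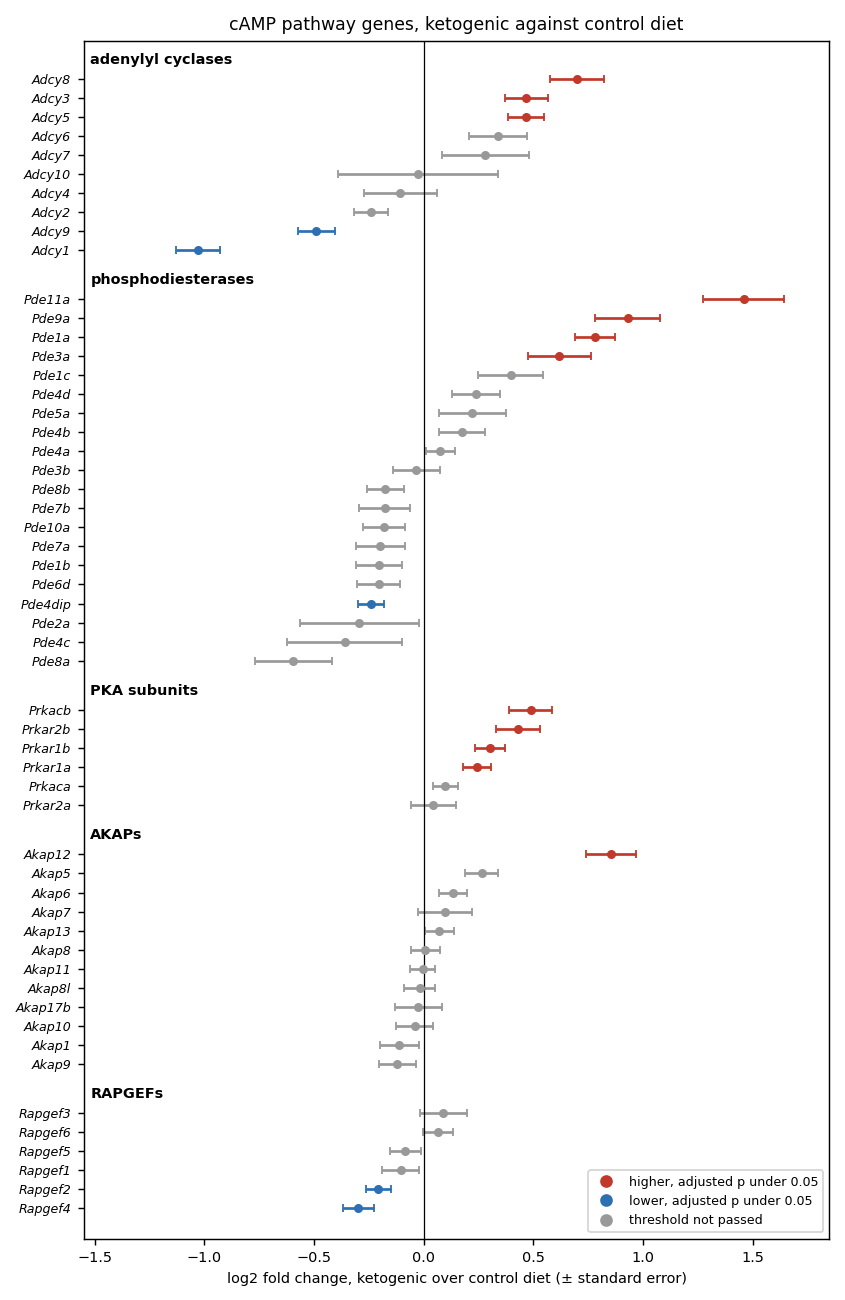
Log2 fold change of ketogenic over control diet (points) with its standard error (bars) for the 54 genes, by class and ordered within each class by size. The largest rise was that of Pde11a at 1.46 and the largest fall that of Adcy1 at -1.03, and 11 of the 12 AKAP genes stayed between -0.12 and 0.26.

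Markers of cell types and hippocampal fields also differed between these libraries, and they stand beside every result that follows. In bulk tissue a smaller number of cells of a type and less RNA per cell cannot be told apart. Among 10 markers of dentate granule cells, 6 were lower past the threshold, with summed levels of 478 to 728 CPM in ketogenic libraries and 977 to 1178 CPM in control libraries. The CA2 and CA3 fields had 7 of 10 markers lower. The CA1 markers went both ways, with 2 of 10 higher and 4 lower, and summed to 1217 to 1319 CPM in ketogenic libraries and 1359 to 1594 CPM in control libraries. Summed choroid plexus markers, all 10 of which fell, were at 52.8 to 100.4 CPM in ketogenic libraries and 807 to 7328 CPM in control libraries, with control 3 the lowest of the control libraries. Myelin markers fell in 8 of 10 cases, with sums of 2899 to 3960 CPM in ketogenic libraries and 5446 to 6892 CPM in control libraries. Upward, 8 of 10 interneuron markers rose (sums of 904 to 1191 CPM in ketogenic and 653 to 666 CPM in control libraries), as did 7 of 10 fibroblast and mural markers (281 to 359 CPM in ketogenic and 103 to 166 CPM in control libraries), 6 of 10 subicular and cortical markers and 5 of 9 tested thalamic markers. The thalamic markers that rose were Rora, Zic1, Ntng1, Cacna1g and Calb2, from 0.30 (Rora) to 2.84 (Calb2). Tcf7l2 (0.02 ± 0.21), Lef1 (0.20 ± 0.20), Prkch (-0.12 ± 0.18) and Slc17a6 (0.60 ± 0.29) did not pass. Of 8 markers of the ventral hippocampus 6 rose, with sums of 188 to 411 CPM in ketogenic libraries and 98.2 to 154 CPM in control libraries. Of these 6, Plagl1 overlapped between the diets, with ketogenic 1 at 16.7 CPM and control libraries at 15.1 to 17.7 CPM. Htr2c (0.02 ± 0.36) and Coch (0.11 ± 0.22), which is also in the CA2 and CA3 list, did not pass. Of 4 dorsal markers 3 fell (133 to 148 CPM in ketogenic and 235 to 273 CPM in control libraries). These 3, Lct, Wfs1 and Iyd, are also counted above, in the dentate, the CA1 and the CA2 and CA3 list. Spink8, the dorsal marker in no other list, did not pass (-0.42 ± 0.15, adjusted p = 0.107). All of these lists were set with earlier results of the data known, and the ventral and dorsal lists were added last, after the values of the other lists were seen. Astrocyte and microglia sums overlapped between the diets.

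**Figure D2:**
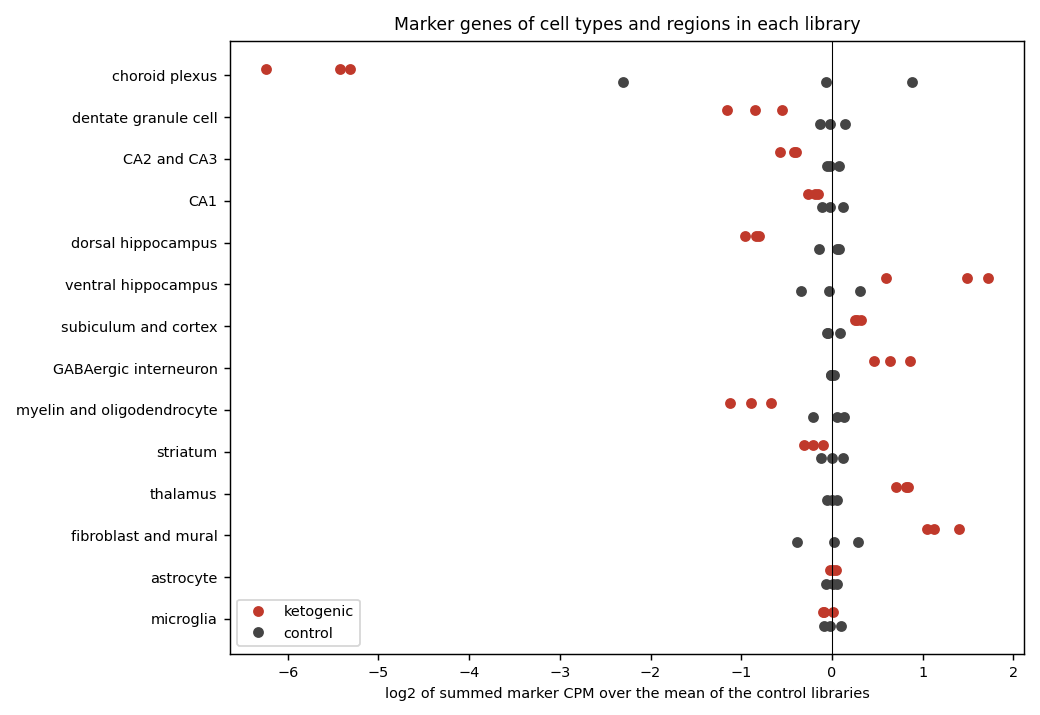
Summed CPM of each marker list in every library, as log2 of the ratio to the mean of the 3 control libraries, with ketogenic libraries above control libraries in each row. Ventral, interneuron, thalamic and fibroblast sums are higher in every ketogenic library, while choroid plexus, dentate, dorsal and myelin sums are lower in every ketogenic library.

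Among the adenylyl cyclases the calcium-stimulated Adcy1 was at 0.49 times the control level in ketogenic hippocampi, Adcy9 was lower as well, and Adcy5, Adcy3 and Adcy8 were higher. Thus 3 of 10 rose, 2 fell and 5 did not pass, where 5.05% of all tested genes rose and 4.62% fell. Adcy1, a neuronal cyclase activated by calcium and calmodulin and abundant in the dentate gyrus, had 1129, 978 and 843 CPM in ketogenic libraries 1 to 3, against 1896, 2146 and 1973 CPM in control libraries 1 to 3. No ketogenic library came near a control library. The means were 983 ± 143 CPM in ketogenic and 2005 ± 128 CPM in control libraries, which gave -1.03 ± 0.10 on the log2 scale (adjusted p = 0.000929; chromosome 11, 7063489 to 7178506, plus strand). Adcy1 kept its call in all 17 alternative fits, with log2 fold changes between -1.14 and -0.93. With control 1 and control 2 both left out it stood at -1.005 (adjusted p = 0.0105). The lower dentate granule cell markers stood at a median log2 fold change of -0.65, and their part in the fall of Adcy1 was not tested.

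Adcy9, a widely expressed cyclase, had 95.9, 107.9 and 112.1 CPM in ketogenic libraries and 163.3, 137.6 and 142.9 CPM in control libraries. Every ketogenic value was under every control value, at a log2 fold change of -0.49 ± 0.08 (adjusted p = 0.00625). Adcy5, a calcium-inhibited cyclase known as the main one of the striatum, had 190.6, 216 and 239 CPM in ketogenic libraries against 154, 164 and 149 CPM in control libraries. It rose by 0.47 ± 0.08 on the log2 scale (adjusted p = 0.00732). Of 10 striatal markers, 3 were higher and 2 lower past the threshold, with sums of 278 to 319.7 CPM in ketogenic libraries and 315 to 373 CPM in control libraries. Adcy8, like Adcy1 stimulated by calcium and calmodulin, had 23.6, 29.8 and 31.0 CPM in ketogenic libraries and 16.03, 18.14 and 17.79 CPM in control libraries. Its log2 fold change was 0.70 ± 0.12 (adjusted p = 0.00713), opposite in sign to that of Adcy1. Adcy3, the cyclase of neuronal primary cilia, had 50.3, 52.0 and 59.7 CPM in ketogenic libraries against 36.4, 37.1 and 43.6 CPM in control libraries (0.47 ± 0.10, adjusted p = 0.0155). Of its exonic bases, 22.1% also lie in exons of Cenpo on the opposite strand, a gene with 299 counts over all libraries against 4824 for Adcy3. The call of Adcy3 was lost without control 2, ketogenic 2 or ketogenic 3 (adjusted p = 0.0799, 0.0601 and 0.0559; range over alternatives 0.000132 to 0.340) and that of Adcy8 without ketogenic 2 (0.0504; range 5.39e-06 to 0.116).

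The other 5 cyclases did not pass the test. Adcy2, stimulated by G protein beta-gamma subunits and the second most abundant cyclase, had 141, 128 and 123 CPM in ketogenic libraries against 141, 157 and 166 CPM in control libraries (-0.24 ± 0.08, adjusted p = 0.0886). It passed with no filter on low counts (adjusted p = 0.0338), when control 1 was left out (-0.30, adjusted p = 0.0466) and when ketogenic 1 was (-0.30, adjusted p = 0.0480). Adcy6, calcium-inhibited like Adcy5, stood at 0.34 ± 0.13 (adjusted p = 0.154) and passed in 2 alternatives, with no filter on low counts and without ketogenic 1. Adcy4, Adcy7 and the soluble, bicarbonate-sensitive Adcy10 stood between -0.11 and 0.28 and were the least abundant, each at a mean of 1.17 FPKM or less over all libraries.

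On the per-length scale Adcy1 supplied the largest share of cyclase transcripts, and the summed level of the class followed it. Summed FPKM of the 10 cyclases was 182 ± 5.48 in ketogenic libraries and 263 ± 9.60 in control libraries, a ratio of 0.69. Without Adcy1 the sums were 104.5 ± 5.74 FPKM in ketogenic libraries and 104.2 ± 0.791 FPKM in control libraries, and overlapped (exact permutation p = 0.8). Adcy1 made up 47.5%, 42.6% and 37.8% of the class in ketogenic libraries and 59.1%, 62.1% and 59.8% in control libraries. The calcium-inhibited Adcy5 and Adcy6 together made up 21.6% ± 3.52 in ketogenic libraries and 11.1% ± 0.534 in control libraries. For each of these shares and for the class sum the diets did not overlap, which is the exact two-sided permutation p of 0.1, the smallest that 3 against 3 libraries can give.

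**Figure D3:**
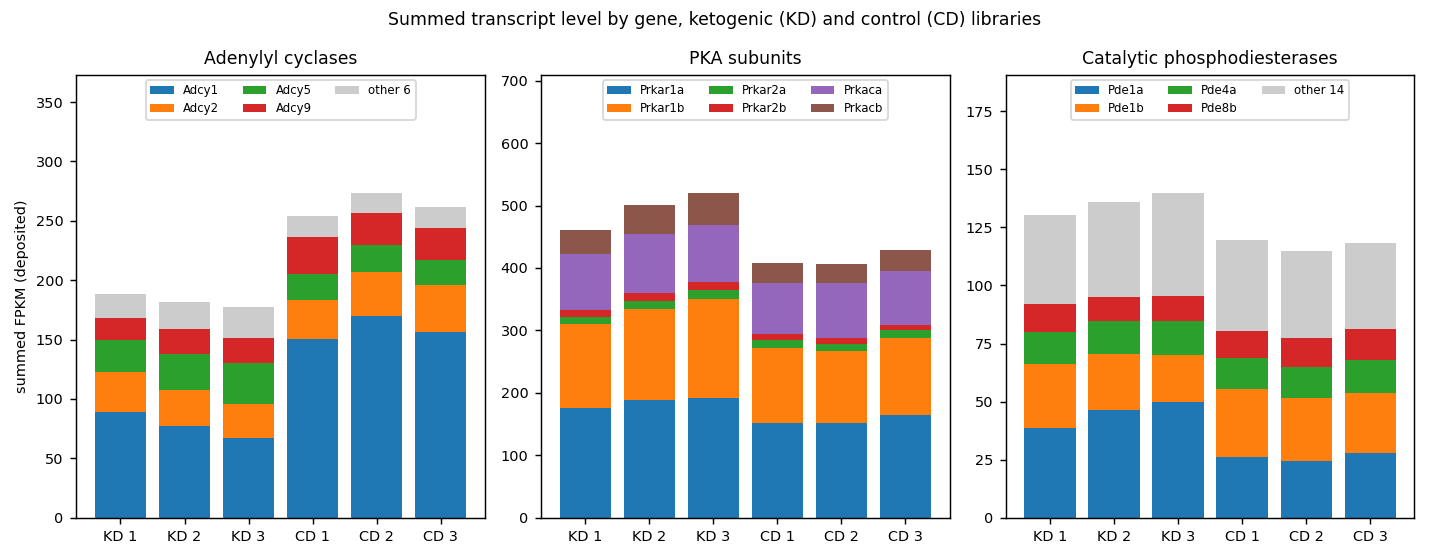
Deposited FPKM stacked by gene in each library for adenylyl cyclases, PKA subunits and catalytic phosphodiesterases, with ketogenic (KD) libraries left of control (CD) libraries. The Adcy1 segment is 67.0 to 89.4 FPKM in ketogenic libraries and 150.4 to 169.8 FPKM in control libraries, while the Pde1a and Prkacb segments are taller in every ketogenic library.

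Among the phosphodiesterase-named genes 4 of 20 rose, 1 fell and 15 did not pass, where 5.05% of all tested genes rose and 4.62% fell. The 4 that rose, Pde11a, Pde9a, Pde1a and Pde3a, encode enzymes of 4 different families. The gene that fell, Pde4dip, encodes myomegalin, a scaffold that binds PDE4D and is no phosphodiesterase. Of the 18 genes that encode catalytic subunits, 4 thus rose (22.2%) and none fell in the reported fit, with a median log2 fold change of 0.02.

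Pde11a showed the largest change of all 54 genes. It encodes an enzyme that cleaves both cAMP and cGMP and that in the rodent brain is known mainly from the ventral hippocampus. Its levels were 15.4, 23.6 and 22.4 CPM in ketogenic libraries against 8.70, 7.33 and 6.29 CPM in control libraries, with the lowest ketogenic library well above the highest control library. The means were 20.5 ± 4.43 CPM in ketogenic and 7.44 ± 1.21 CPM in control libraries, a log2 fold change of 1.46 ± 0.18, or 2.75-fold (adjusted p = 0.00186; chromosome 2, 75989141 to 76338774, minus strand). The call held in all 17 alternatives, with log2 fold changes of 1.01 on log2(FPKM + 1) values to 1.70 with control 1 and control 2 left out. In the same libraries ventral markers rose, among them Trhr by 3.81 ± 0.49 (adjusted p = 0.00193), Grp by 2.36 ± 0.20 (adjusted p = 0.000541) and Nr2f2 by 1.77 ± 0.27 (adjusted p = 0.00333), and Lct, a dorsal granule cell marker, fell by 2.21 (adjusted p = 0.00631). Their part in the rise of Pde11a was not tested.

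Pde1a, a calcium- and calmodulin-activated phosphodiesterase of both cyclic nucleotides, was the most abundant member of its class as counted, at a mean of 35.6 FPKM. It had 235, 281 and 301 CPM in ketogenic libraries against 159.6, 147 and 169 CPM in control libraries. The groups were far apart, with a log2 fold change of 0.78 ± 0.09 (adjusted p = 0.00147), and the call held in all 17 alternatives (0.69 to 0.87). Its relative Pde1b, next in abundance at 25.6 FPKM, went the other way without passing: 148.5, 131.1 and 108.7 CPM in ketogenic libraries and 158.5, 149.7 and 138.9 CPM in control libraries (-0.20 ± 0.10, adjusted p = 0.286). Pde1c stood at 0.40 ± 0.15 (adjusted p = 0.136). Pde1a made up 33.2% ± 3.04 of the summed FPKM of catalytic phosphodiesterases in ketogenic libraries and 22.3% ± 1.29 in control libraries, without overlap (exact permutation p = 0.1, the smallest possible here). The summed FPKM of the 18 genes was 135 ± 4.68 in ketogenic libraries and 118 ± 2.52 in control libraries. Pde2a entered this sum, the Pde1a share and the ranks by abundance at a mean of only 0.40 FPKM. Of its exonic bases, 64.3% also belong to another gene on the same strand, so reads may be missing from its count. The sum, the share and the ranks are uncertain to that extent.

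Pde9a, a cGMP-specific enzyme, had 13.3, 17.2 and 19.0 CPM in ketogenic libraries, against 8.81, 8.63 and 8.53 CPM in control libraries that hardly differed from each other. Its log2 fold change was 0.93 ± 0.15 (adjusted p = 0.00442), and among fits that left out 1 library the adjusted p reached 0.0343. Pde3a, a cAMP phosphodiesterase inhibited by cGMP and known from vascular smooth muscle, had 10.5, 10.6 and 12.9 CPM in ketogenic libraries against 7.34, 6.97 and 7.75 CPM in control libraries (0.62 ± 0.14, adjusted p = 0.0231). The call of Pde3a was lost without control 1, control 2, ketogenic 2 or ketogenic 3 (adjusted p = 0.0567, 0.0995, 0.0717 and 0.0862; range over alternatives 0.00754 to 0.269). Of the smooth muscle and pericyte genes in the fibroblast and mural list, Myl9 rose by 0.87 ± 0.23 (adjusted p = 0.0390), while Acta2 at 1.03 ± 0.29 (adjusted p = 0.0547) and Pdgfrb at 0.08 ± 0.12 (adjusted p = 0.762) did not pass. Their part in the Pde3a result was not tested. Pde4dip had 218, 205 and 224 CPM in ketogenic libraries and 245, 259 and 260.2 CPM in control libraries (-0.24 ± 0.06, adjusted p = 0.0322). This call was lost without control 2, control 3 or ketogenic 2 (adjusted p = 0.126, 0.0671 and 0.168; range 0.0151 to 0.206) and with the replicate block (0.05005).

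The cAMP-specific Pde4 genes, whose products are the targets of rolipram, did not pass: Pde4a, Pde4b, Pde4c and Pde4d stood between -0.36 and 0.24, with standard errors of 0.07 to 0.26. Of the other cAMP-specific enzymes, Pde8a came closest, with 20.3, 13.9 and 14.0 CPM in ketogenic libraries and 23.2, 29.2 and 20.5 CPM in control libraries (-0.60 ± 0.18, adjusted p = 0.0604). It passed in 4 alternatives: with no filter on low counts, with DESeq2, without control 3 and without ketogenic 1. Pde7a, Pde7b and Pde8b stood between -0.20 and -0.17. Pde10a, an enzyme known for its abundance in striatal neurons, had 82.5, 86.5 and 86.8 CPM in ketogenic libraries against 112, 84.2 and 93.6 CPM in control libraries (-0.18 ± 0.10, adjusted p = 0.313). Pde2a, the cGMP-stimulated enzyme, was counted at only 257 reads in all libraries together. In GENCODE M21, 64.3% of its exonic bases also belong to Gm45837, a protein-coding gene on the same strand with 1 read, so reads shared by both genes may be missing from the count and its level is uncertain. Pde6d, which encodes a prenyl-binding protein and no catalytic subunit, stood at -0.21 ± 0.10 (adjusted p = 0.246).

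The phosphodiesterase of photoreceptors bears on the tissue, because the extraction protocol in the labels names retinas while the tissue label names hippocampus. The rod and cone genes Pde6a, Pde6b, Pde6c, Pde6g and Pde6h summed to between 12 and 30 counts over all 6 libraries, too few to enter the comparison. Only 2 of the 10 listed retina markers passed the filter on low counts, and Cnga1 had 0 counts.

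All 6 PKA subunit genes had positive log2 fold changes, and 4 of them rose: the catalytic Prkacb and the regulatory Prkar1a, Prkar1b and Prkar2b. Among all tested genes 5.05% rose and 4.62% fell. Prkaca (0.10 ± 0.06) and Prkar2a (0.04 ± 0.10) did not pass, and Prkar2a turned negative in 3 of 17 alternatives. To show the 5′ regions of the genes that rose together, the 250 bases before a RefSeq start (GRCm38.p6) are printed for each, 5′ to 3′ on the gene's strand. Capitals mark the CREB half-site TGACG on either strand (CGTCA where it lies on the other strand) and the full cAMP response element TGACGTCA, which contains both. Where RefSeq lists several starts, the window with the most half-sites is shown, and the first one listed where they tie. Which start was used in these libraries is not given by gene counts.
Prkacb: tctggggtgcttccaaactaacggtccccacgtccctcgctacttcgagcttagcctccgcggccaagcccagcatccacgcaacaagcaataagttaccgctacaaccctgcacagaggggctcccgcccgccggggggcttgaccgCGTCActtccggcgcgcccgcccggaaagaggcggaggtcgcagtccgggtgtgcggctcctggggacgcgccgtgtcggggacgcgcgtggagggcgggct
Prkar1a: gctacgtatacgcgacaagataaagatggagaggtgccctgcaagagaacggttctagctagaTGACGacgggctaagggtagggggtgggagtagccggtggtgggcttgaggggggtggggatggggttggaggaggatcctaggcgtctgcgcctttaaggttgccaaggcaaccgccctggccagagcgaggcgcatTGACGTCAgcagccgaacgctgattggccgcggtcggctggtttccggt
Prkar1b: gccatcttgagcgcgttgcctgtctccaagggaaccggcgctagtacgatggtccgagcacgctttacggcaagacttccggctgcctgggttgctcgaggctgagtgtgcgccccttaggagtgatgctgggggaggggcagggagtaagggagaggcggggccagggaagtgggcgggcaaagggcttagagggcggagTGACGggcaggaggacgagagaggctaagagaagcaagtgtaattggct
Prkar2b: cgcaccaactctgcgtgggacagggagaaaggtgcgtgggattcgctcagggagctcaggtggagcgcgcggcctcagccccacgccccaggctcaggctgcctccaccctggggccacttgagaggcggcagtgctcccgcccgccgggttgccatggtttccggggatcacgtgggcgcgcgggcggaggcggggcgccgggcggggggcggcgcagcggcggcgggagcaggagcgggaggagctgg

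The windows are chr3:146812947-146813196 (minus strand), chr11:109650699-109650948 (plus), chr5:139150002-139150251 (minus) and chr12:32061278-32061527 (minus). The Prkar1a window holds the full element, beginning 49 bases before the start, and a further half-site 187 bases before it. Prkar1b has a half-site 49 bases and Prkacb one 102 bases before the start, and these letters are not in the Prkar2b window. TGACGTCA was found in 1 of 91 windows of the 47 genes present in the table, and in 1.55% of all 32851 windows of the same length. TGACG on either strand was found in 16.5% of the members' windows and 17.8% of all windows. In the 19 windows of PKA subunit genes, several of which belong to the same gene, TGACG was found in 6 (31.6%) and TGACGTCA in 1 (5.26%).

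Prkacb, the beta catalytic subunit, had 336, 416 and 457 CPM in ketogenic libraries and 289, 278 and 295 CPM in control libraries. The lowest ketogenic value, in ketogenic 1, lay closest to the controls. Its log2 fold change was 0.49 ± 0.10 (adjusted p = 0.0125). Prkaca, the alpha catalytic subunit and the more abundant of the pair at 88.6 against 39.1 FPKM, had 226, 235 and 228 CPM in ketogenic libraries and 206, 221 and 216 CPM in control libraries. The groups did not overlap, but its difference of 0.10 ± 0.06 did not pass (adjusted p = 0.356). Prkacb thus made up 29.7%, 33.4% and 36.2% of catalytic FPKM in ketogenic libraries and 28.4%, 26.3% and 27.9% in control libraries.

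The type I regulatory genes were the most abundant members of the class. Prkar1a had 764, 819.6 and 832 CPM in ketogenic libraries against 659, 664 and 719 CPM in control libraries (0.24 ± 0.06, adjusted p = 0.0384). Prkar1b, the neuronal type I beta subunit, had 521, 562 and 609 CPM in ketogenic libraries against 464, 442 and 467 CPM in control libraries (0.30 ± 0.07, adjusted p = 0.0216). For both, each ketogenic library was above each control library by a modest margin. Of the type II genes, Prkar2b had 38.6, 49.3 and 43.7 CPM in ketogenic libraries against 31.2, 33.5 and 32.9 CPM in control libraries (0.43 ± 0.10, adjusted p = 0.0231). Prkar2a overlapped between the diets, with 69.7, 79.7 and 90.9 CPM in ketogenic libraries and 79.98, 69.7 and 83.3 CPM in control libraries (0.04 ± 0.10, adjusted p = 0.854).

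Summed regulatory FPKM was 356 ± 22.5 in ketogenic libraries and 297 ± 11.3 in control libraries, a ratio of 1.20, and summed catalytic FPKM was 137 ± 8.10 in ketogenic libraries and 118 ± 2.74 in control libraries, a ratio of 1.16 (exact permutation p = 0.1 for each sum, the smallest possible here). Regulatory over catalytic FPKM was 2.60 ± 0.0383 in ketogenic libraries and 2.51 ± 0.0958 in control libraries (exact two-sided permutation p = 0.2). Type II subunits made up 6.83% ± 0.380 of regulatory FPKM in ketogenic libraries and 7.06% ± 0.106 in control libraries. None of the 4 calls was kept without control 2 or without ketogenic 2: Prkacb had adjusted p of 0.0673 and 0.0728, Prkar1a 0.160 and 0.169, Prkar1b 0.109 and 0.10, and Prkar2b 0.0773 and 0.124. Prkar1a, Prkar1b and Prkar2b also missed it without ketogenic 3 (0.115, 0.0699 and 0.0644), and Prkar1a and Prkar2b without control 1 (0.110 and 0.0709). With any 1 library left out, the log2 fold changes of the 4 genes were between 0.22 and 0.60. Over all alternatives the adjusted p ranged from 5.56e-08 to 0.195 for Prkacb, 0.00814 to 0.483 for Prkar1a, 0.000877 to 0.278 for Prkar1b and 0.00138 to 0.260 for Prkar2b.

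**Figure D4:**
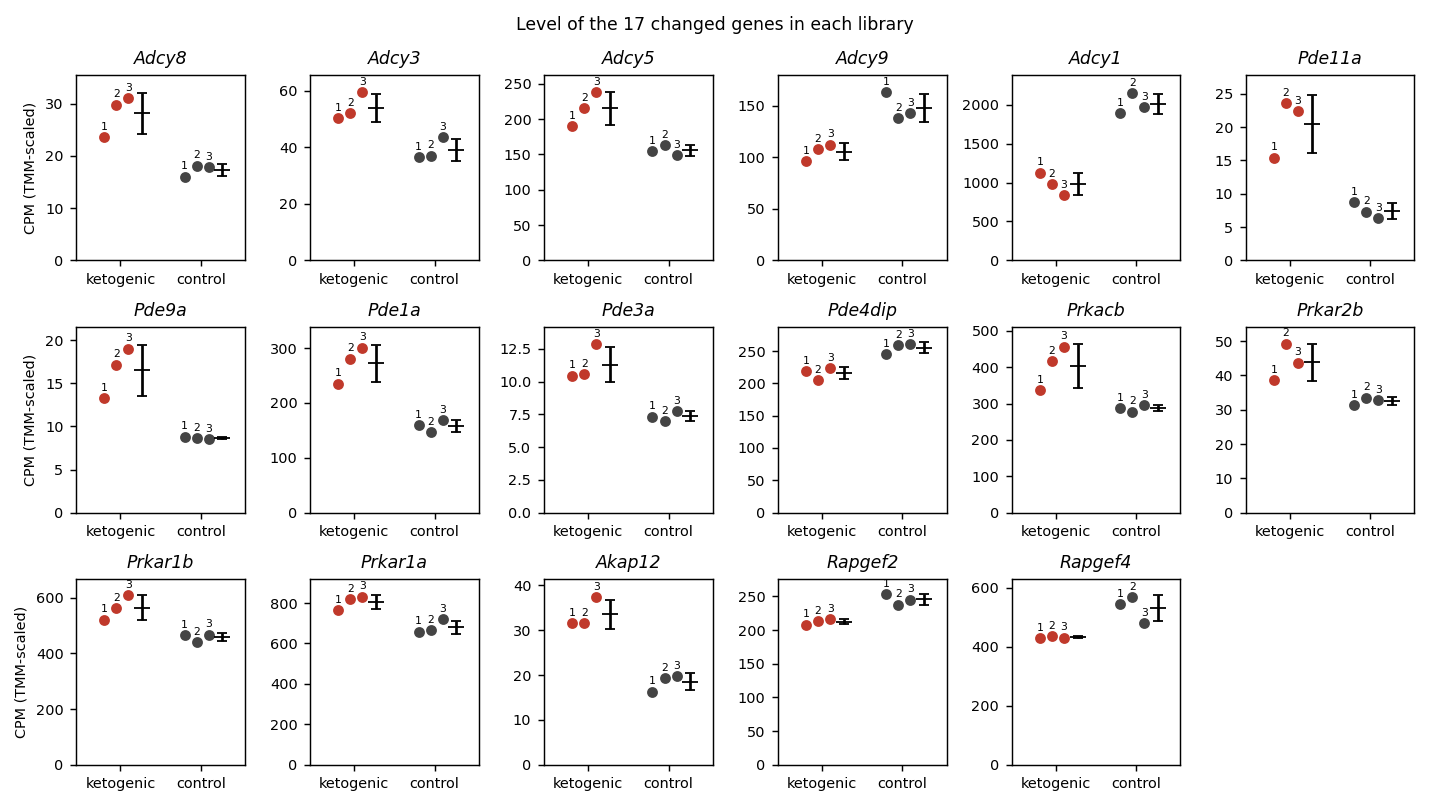
CPM of each of the 17 changed genes in ketogenic (red) and control (grey) libraries, numbered by replicate, with mean and SD to the right of each group and all axes starting at 0. The diets are separated in every panel, by a wide gap for Adcy1, Pde11a and Pde1a and a narrow one for Prkar1a, Pde4dip and Rapgef2.

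Among the anchoring proteins Akap12 alone passed the test, 1 of 12 (8.33%), where 9.67% of all tested genes passed either way. Akap12, or gravin, binds PKA near the plasma membrane and was at 31.6, 31.6 and 37.3 CPM in ketogenic libraries and 16.3, 19.4 and 19.8 CPM in control libraries. Every ketogenic library had well over the highest control level, at a log2 fold change of 0.86 ± 0.11, or 1.81-fold (adjusted p = 0.00207; chromosome 10, 4266380 to 4359470, plus strand). Its adjusted p stayed under 0.05 in all alternatives but that without control 1 and control 2 (0.0517; range 3.90e-09 to 0.0517). Akap12 is also known from perivascular and meningeal fibroblasts, and fibroblast markers were higher in the same libraries, with Dcn at 2.46 ± 0.28 (adjusted p = 0.00134) and a list median of 1.06. Dcn also stands in the ventral list. Their part in the Akap12 result was not tested.

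The other 11 AKAP genes stood between -0.12 and 0.26, with standard errors of 0.06 to 0.12. The largest of these was Akap5, the postsynaptic anchor known as AKAP150 in rodents. It had 82.0, 91.1 and 94.0 CPM in ketogenic libraries against 77.7, 74.4 and 70.3 CPM in control libraries (0.26 ± 0.08, adjusted p = 0.0539). The groups did not overlap, and Akap5 passed in 5 of the alternatives. Akap11, the most abundant AKAP at 35.5 FPKM, had 374, 402 and 404 CPM in ketogenic libraries and 400.04, 384 and 400.5 CPM in control libraries (-0.00 ± 0.06, adjusted p = 0.975). Akap8l, the next in abundance at 32.8 FPKM, had 70.5, 66.7 and 66.9 CPM in ketogenic libraries and 65.6, 73.6 and 67.5 CPM in control libraries (-0.02 ± 0.07, adjusted p = 0.916). Its deposited length is 2075 bases, where GENCODE M21 gives 5073 exonic bases, so its FPKM and rank are uncertain. Akap6, which anchors PKA at the nuclear envelope, stood at 0.13 ± 0.06 (adjusted p = 0.243), the mitochondrial Akap1 at -0.11 ± 0.09 (adjusted p = 0.529) and Akap9 of the Golgi and centrosome at -0.12 ± 0.08 (adjusted p = 0.452). Akap2, Akap3, Akap4 and Akap14 had between 0 and 29 counts in all and were not members. Summed AKAP FPKM was 153 ± 3.47 in ketogenic libraries and 148 ± 2.06 in control libraries (exact permutation p = 0.2).

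Of the exchange factors that activate Rap proteins, 2 of 6 fell and none rose, where 4.62% of all tested genes fell and 5.05% rose. Summed FPKM of the class was 128 ± 1.81 in ketogenic libraries and 147 ± 6.84 in control libraries (exact permutation p = 0.1, the smallest possible here). Rapgef4 encodes Epac2, the cAMP-activated exchange factor of neurons, and was by far the most abundant at 71.5 FPKM. It had 429, 435 and 431 CPM in ketogenic libraries, which lay close together, against 545, 567 and 480.3 CPM in control libraries. Its log2 fold change was -0.30 ± 0.07 (adjusted p = 0.0235). Rapgef3, which encodes Epac1, had 31.1, 36.2 and 37.1 CPM in ketogenic libraries and 29.0, 35.4 and 33.7 CPM in control libraries (0.09 ± 0.11, adjusted p = 0.682). Rapgef2, an exchange factor with a PDZ domain, had 208, 214 and 217 CPM in ketogenic libraries against 253, 238 and 245 CPM in control libraries (-0.21 ± 0.06, adjusted p = 0.0447). Its relative Rapgef6 stood at 0.07 ± 0.07 (adjusted p = 0.628). Rapgef1 had 138, 151 and 157 CPM in ketogenic libraries and 179, 152 and 149 CPM in control libraries (-0.11 ± 0.08, adjusted p = 0.514), and Rapgef5 stood at -0.08 ± 0.07 (adjusted p = 0.544). The call of Rapgef4 was lost without control 1, control 2, ketogenic 2 or ketogenic 3 (adjusted p = 0.0660, 0.114, 0.105 and 0.0660; range 0.00136 to 0.472). That of Rapgef2 was lost without any 1 library (0.0735 to 0.163; range over all alternatives 0.0368 to 0.330) and with the replicate block (0.0739).

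**Figure D5:**
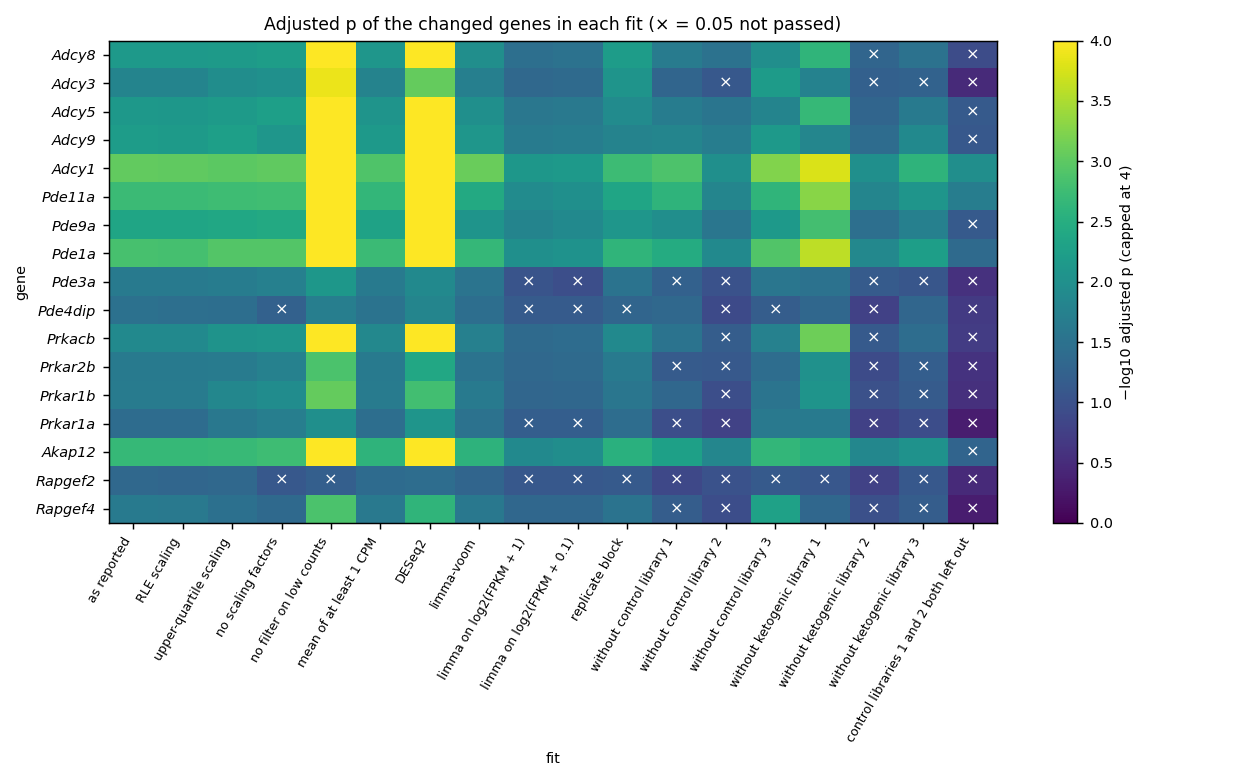
Adjusted p of the 17 changed genes (rows) in the reported fit and 17 alternatives (columns), as −log10 with colour capped at 4 and a cross where 0.05 was not passed. Adcy1, Pde1a and Pde11a have no cross, while Rapgef2 has 12 and Pde4dip has 8.

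Genes around these enzymes were taken from 7 lists of the pathway. Beside the counts of these lists, 5.05% of all tested genes rose and 4.62% fell. Of 7 inhibitory and stimulatory G protein alpha subunits, 1 rose (Gnai1, 0.29 ± 0.08, adjusted p = 0.0447) and none fell, with a list median of 0.17. The call of Gnai1 was lost in 10 of 17 alternatives, among them limma-voom, the replicate block and each fit that left out 1 library other than ketogenic 1 (range of adjusted p 0.00279 to 0.209). Of the 3 genes of PKA inhibitor peptides none passed. Of 11 CREB family factors and coactivators 1 fell, Crtc1, a CREB coactivator of neurons, at -0.37 ± 0.07 (adjusted p = 0.00651), with a median of -0.08. Of 6 tested genes of other cAMP-binding proteins 4 rose and none fell, with a median of 0.58. Among these were the channel genes Hcn3, by 0.54 ± 0.12 (adjusted p = 0.0226), and Hcn4, and the Popeye domain gene Popdc3, by 1.13 ± 0.22 (adjusted p = 0.0104). Hcn4 stood at 1.19 ± 0.32 (adjusted p = 0.0418). On the cGMP side, Prkg2, the type II cGMP-dependent kinase, rose by 1.65 ± 0.31 (adjusted p = 0.00887) and Gucy1a1, a guanylyl cyclase subunit, by 0.49 ± 0.12 (adjusted p = 0.0275), 2 of 5 genes with a list median of -0.02.

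In the list of PACAP and phosphatase inhibitors 2 of 6 rose and 2 fell. Adcyap1, which encodes PACAP, a peptide whose receptor stimulates adenylyl cyclase, had 6.36, 13.9 and 11.4 CPM in ketogenic libraries and 0.947, 2.78 and 3.93 CPM in control libraries. It rose by 2.04 ± 0.41 on the log2 scale (adjusted p = 0.0131), and was named after its values were seen. Arpp21, a cAMP-regulated phosphoprotein gene, rose by 0.46 ± 0.08 (adjusted p = 0.00536). Ppp1r1a and Ppp1r1b, whose products inhibit protein phosphatase 1 once phosphorylated by PKA, fell by 0.69 (adjusted p = 0.00579) and 1.12 (adjusted p = 0.00976). Ppp1r1b is also counted above, among the striatal markers that were lower. It had 38.1, 31.4 and 29.7 CPM in ketogenic libraries and 98.7, 68.0 and 48.4 CPM in control libraries, which differed widely from each other. In the list drawn up for PKA anchors outside the Akap series, 1 of 10 genes rose and 3 fell. Whether each listed gene, Mtcl1 among them, anchors PKA is not shown by these data. Ezr, the ezrin gene, fell by 0.84 (adjusted p = 0.00179), Mtcl1 by 0.43 (adjusted p = 0.00733) and Sphkap by 0.42 (adjusted p = 0.0127), while Map2, the dendritic microtubule protein that binds type II PKA, stood at 0.33 ± 0.07 (adjusted p = 0.0146). Map2 and Hcn4, too, were named after their values were seen. Of the changed genes named from these lists, Ezr passed in all 17 alternatives, and Crtc1, Ppp1r1a, Arpp21 and Mtcl1 passed whichever single library was left out. Without ketogenic 2 the adjusted p of the other named genes lay between 0.0572 and 0.209, except for Popdc3, which was lost without control 2 (0.0570).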

How the data were processed

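Poly-adenylated RNA libraries of mouse hippocampus (TruSeq kit, per the labels' protocols) were deposited as raw counts per gene and, in a separate table, as FPKM per gene; both were made by the authors. The submitters' processing notes name CASAVA, featureCounts 1.5.0-p3, DESeq2 1.10.1 and the mm9 build, though the deposited coordinates match GRCm38. Which aligner, strand setting and FPKM tool were used: not given in the sources used here. Reads shared by overlapping genes may be lost or split, which bears on Pde2a and Adcy3.

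The members and all lists were chosen with earlier results of these data known. Members were the protein-coding rows matching the 5 name patterns with 60 or more summed counts. The main test was that of edgeR 4.0.16 under R 4.3.3 (filterByExpr, TMM, quasi-likelihood F-test; 16478 genes, all 6 libraries, no covariate). The median standard error was 0.128 log2 units over tested genes, and the biological coefficient of variation was 11.6%. Libraries of a diet differed by more than sampling noise (chi-square per degree of freedom 6.26 to 18.9), so each was counted as 1 sample. Where libraries share more than diet, p-values measure only the spread between these samples. The fit was tested on simulated data, where it recovered 92 of 100 planted 2-fold changes and 57 of 100 planted 1.5-fold changes, with 9 false calls. A change of 1.5-fold or less can thus miss the threshold. Changes were planted only in genes expected at over 60 counts per library, with the spread estimated by the fit. Recovery in genes with fewer counts, or where single libraries stand apart, was not simulated. Class sums and shares used deposited FPKM, with exact two-sided permutation tests.

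Named with all values were changed members, the 2 most abundant of each class, all PKA subunits and the retinal Pde6 genes; from pathway lists, up to 3 changed genes each. Some genes of the lists are not reported here. Exceptions are named as such, and Pde8a, Pde10a, Akap5 and Rapgef3 were also given in full after their values were seen. Alternatives were RLE, upper-quartile or no scaling, other filters, DESeq2 1.42.0, limma 3.58.1 (voom, and log2 of FPKM plus 1 or 0.1), a replicate block, each library left out, and control 1 and 2 left out. Promoter windows came from RefSeq and exon overlaps from GENCODE M21.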

Additional observations from a re-analysis of the deposited data

How the results depend on the processing

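With each library left out in turn, 5 to 14 members rose and 2 to 6 fell, and over all tested genes 324 to 936 rose and 214 to 941 fell; the fewest members were called without ketogenic 2. With control 1 and control 2 both left out, 2 members rose and 1 fell (133 and 156 of all genes). At adjusted p under 0.01 there were 6 and 2 members (328 and 259 of all genes). Without scaling factors, on log2(FPKM + 1), on log2(FPKM + 0.1) and with the replicate block, 3 members fell in place of 5; over all genes 480 and 504 fell on the 2 FPKM scales. With no filter on low counts 1252 genes rose and 1210 fell. Adcy1, Pde1a and Pde11a passed in all 17 alternatives.

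The replicate block called 15 members in place of 17, losing Pde4dip and Rapgef2. Deviations of same-numbered libraries correlated at -0.0237, 0.0609 and 0.0289, and not every library correlated best with its own number. With 3 libraries per diet these values cannot decide whether the numbers pair the libraries, and the labels do not say that they do.

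Of the members whose values were followed in each alternative (those changed, the 2 most abundant of each class, the PKA subunits and Pde6d), 3 near 0 turned direction, none past the threshold; other members near 0 were not followed: Akap11 (-0.00 as reported; 0.0040 with upper-quartile and 0.032 with no scaling; -0.027 to 0.029 with 1 library left out), Akap8l (0.017 with no scaling, 0.011 without control 1 and 2; -0.053 to 0.029) and Prkar2a (-0.056 without control 1 and 2; -0.058 to 0.13). The cause was not tested. With 3 libraries per diet, changes of the size seen for the PKA subunits that rose (0.24 to 0.49) lost their call in some fits with 5 libraries.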
